A study of Mus musculus with 6 samples.

Results

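Voltage-gated sodium and calcium channel genes and potassium channel genes were examined across 6 mouse liver tumour cell lines. All genes whose symbol marks a sodium channel subunit (Scn followed by a number and a or b), a calcium channel subunit (Cacna, Cacnb or Cacng) or a potassium channel subunit (Kcn, letters and a number) were taken, 132 of the 53465 genes in the count table. The antisense RNA Kcnq1ot1 was not part of the set. Of these genes, 40 had at least 10 counts in any cell line, 57 had between 1 and 9 counts at most, and 35 had no count in any line.

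RNA sequencing had been performed on 3 Myc_Utx and 3 Myc_p53 lines of C57BL/6 origin, grown from liver tumours by plating digested tissue on collagen and passaging until no other cell type was seen. The lines are called independent, but how many mice they came from is not given in the sources used here. The tumours had been induced in female mice of 8 weeks by injecting a Myc transposon together with a plasmid for Cas9 and a guide RNA, directed against Kdm6a (also called Utx, an X-linked histone H3K27 demethylase) for Myc_Utx and against p53 (Trp53) for Myc_p53. Both groups thus carried the Myc transgene, and no line had both Kdm6a and Trp53 intact. What follows Kdm6a loss and what follows p53 loss cannot be told apart in this design.

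Voltage-gated channels open when the membrane depolarises. Nav channels carry the fast sodium current of the action potential, Cav channels let in calcium that drives secretion, contraction and gene expression, and Kv channels repolarise the membrane. Potassium channels that are opened by calcium, that rectify inwardly or that leak constantly set the resting potential. In hepatocytes and other epithelial cells, this potential supports solute transport, volume regulation and calcium entry. Many of the voltage-gated channels are built from pore-forming subunits and auxiliary subunits that control the traffic and gating of the pore.

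Between 4656103 and 5473042 reads were counted in Myc_Utx and between 5370608 and 6937497 in Myc_p53 lines. Trp53 had 294.2, 295.5 and 275.9 TMM-normalized CPM (counts scaled to the size and, by TMM, the composition of each library) in Myc_Utx lines and 32.4, 34.5 and 35.8 in Myc_p53 lines. Kdm6a had 39.7, 45.7 and 49.0 against 69.5, 64.5 and 42.5 with overlap, and small Cas9-made insertions or deletions need not lower the read count of a gene. Of the 10 hepatocyte markers, 7 reached 10 counts in any line. Together the 10 summed to 7.58, 10.5 and 47.4 CPM in Myc_Utx and 57.7, 41.9 and 87.0 CPM in Myc_p53 lines. Alb had at most 26 counts and Apoa1 at most 5, while Apob had 0, 6 and 1 counts in Myc_Utx and 88, 71 and 378 in Myc_p53 lines. Of the 12 neuronal and neuroendocrine markers, Snap25, Rbfox3 and Chga had 0 counts in every line and Syp had at most 3. Others of this list were present, and 4 of the 12 reached the minimum count used for channel genes. Of the Schwann cell markers, Sox10 and Cdh19 were at 0 in every line. Other markers moved with the groups. Summed over 13 macrophage markers, the level was 3.39 to 6.18 CPM in Myc_Utx and 45.4 to 116.8 CPM in Myc_p53 lines, and 9 of the 13 were lower in every Myc_Utx line, while Clec4f was at 0 throughout. The 12 neuronal and neuroendocrine markers summed to 6.46 to 18.4 CPM in Myc_Utx and 53.7 to 187.6 CPM in Myc_p53 lines, mostly through Tubb3 and Uchl1, with Stmn2 in Myc_p53 line 2. The 5 smooth muscle markers summed to 58.2 to 78.8 CPM and 214.8 to 351.6 CPM, and the part of these cell types in the results below was not tested. The 5 Schwann cell markers summed to 0.223 to 1.31 CPM and 1.48 to 2.53 CPM, and the 8 endothelial markers to 17.2 to 21.8 CPM and 7.70 to 16.9 CPM, mostly from Egfl7. The sums of hepatocyte, cholangiocyte, stellate cell and fibroblast, and lymphocyte markers overlapped between the groups. Stellate cell and fibroblast markers summed to 1953 to 2693 CPM in Myc_Utx and to 42.4, 3170 and 722 CPM in Myc_p53 lines 1, 2 and 3. Cholangiocyte markers summed to 510 to 1441 CPM in Myc_Utx and to 1381, 153 and 1463 CPM in Myc_p53 lines 1, 2 and 3. In such bulk RNA, fewer cells of a type and less RNA per cell cannot be told apart.

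The promoters of 4 channel genes are shown. These are Kcnn4, the only gene called higher in Myc_Utx lines, and Scn9a, which had no read in Myc_Utx lines. The others are Kcnk5, the potassium channel gene of the highest mean level per length in Myc_p53 lines, and Kcnh7, whose adjusted p lay nearest above the threshold. Kcnk5 and Kcnh7 were not called by edgeR, and Kcnab3, which was called, had no RefSeq promoter among those found. Each run covers 300 bases of GRCm38.p6 around the transcription start annotated by RefSeq, most of them before it, 5′ to 3′ on the strand of the gene. Capitals mark CACGTG, the E-box to which Myc binds with its partner Max.
Kcnn4, chr7:24370013-24370312, plus strand: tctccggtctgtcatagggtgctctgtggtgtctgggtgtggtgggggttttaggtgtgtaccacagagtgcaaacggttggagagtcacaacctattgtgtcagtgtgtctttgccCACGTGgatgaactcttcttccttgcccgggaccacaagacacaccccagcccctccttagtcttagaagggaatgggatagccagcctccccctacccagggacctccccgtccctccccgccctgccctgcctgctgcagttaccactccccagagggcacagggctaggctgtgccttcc
Kcnk5, chr14:20181733-20182032, minus strand: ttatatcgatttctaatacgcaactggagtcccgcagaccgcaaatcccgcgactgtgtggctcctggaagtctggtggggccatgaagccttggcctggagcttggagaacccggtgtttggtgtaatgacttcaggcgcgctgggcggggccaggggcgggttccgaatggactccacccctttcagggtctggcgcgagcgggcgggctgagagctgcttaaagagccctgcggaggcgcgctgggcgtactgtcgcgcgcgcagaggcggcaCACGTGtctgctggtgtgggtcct
Scn9a, chr2:66634913-66635212, minus strand: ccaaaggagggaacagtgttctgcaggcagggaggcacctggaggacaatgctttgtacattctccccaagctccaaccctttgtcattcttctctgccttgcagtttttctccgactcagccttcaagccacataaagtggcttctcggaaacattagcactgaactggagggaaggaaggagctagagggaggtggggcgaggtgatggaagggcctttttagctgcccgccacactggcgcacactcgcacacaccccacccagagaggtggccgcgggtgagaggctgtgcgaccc
Kcnh7, chr2:63184238-63184537, minus strand: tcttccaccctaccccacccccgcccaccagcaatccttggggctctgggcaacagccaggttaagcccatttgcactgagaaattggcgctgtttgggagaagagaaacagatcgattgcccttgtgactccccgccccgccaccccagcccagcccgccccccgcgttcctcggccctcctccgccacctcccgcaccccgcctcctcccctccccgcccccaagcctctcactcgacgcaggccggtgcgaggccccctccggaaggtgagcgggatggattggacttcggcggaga

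The E-box letters occurred once in the windows of Kcnn4 and Kcnk5 and not in those of Scn9a and Kcnh7. RefSeq promoters were found for 97 of the 132 channel genes, in 133 windows. Across all 32851 windows of the genome, 7.15% held CACGTG, a motif that reads the same on both strands. It was found in 5 of the 41 windows that belonged to 24 genes with 10 or more counts and in 2 of the 92 windows of the other 73 genes. Those with 10 or more counts were Kcnab1 (in 2 windows), Kcnj2, Kcnk5 and Kcnn4. The letters TTCAGCACC, part of the site of the neuronal repressor REST and searched on both strands, were in 0 of these 41 windows, in 1 of the 92 (that of Kcnh6) and in 0.371% of all windows. TATAAA, also searched on both strands, was in 3 and 4 windows, against 13.6% of all. The ratio of observed to expected CG dinucleotides had a median of 0.433 in the windows of genes with 10 or more counts, of 0.436 in those of the other channel genes and of 0.384 in all windows. Among the windows printed, it was 0.226 for Kcnn4, 0.878 for Kcnk5, 0.366 for Scn9a and 0.664 for Kcnh7. Such matches describe letters in a window and say nothing on binding.

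Few channel genes were expressed. The 40 genes with 10 or more counts made up 30.3% of the set, while 56.0% of the 21865 protein-coding genes of the table reached 10 counts in any line. Just inside this limit was Kcnn3 with 11 counts in its highest line, and just outside were Cacnb4 with 9 and Cacng7, Kcnab2 and Scn7a with 8 each. Sodium channels were represented by 5 of 14 genes, pore-forming calcium channel subunits by 5 of 10, the calcium channel beta subunits by 3 of 4 and the alpha2delta subunits by 1 of 4. None of the 8 Cacng genes, which encode gamma subunits and relatives that regulate glutamate receptors, reached 10 counts. Of the potassium channels, 10 of 40 Kv pore subunits, 4 of 11 Kv auxiliary subunits, 4 of 12 calcium- or sodium-activated channel subunits, 3 of 15 inward rectifiers and 5 of 14 K2P leak channels were expressed. Among the 35 genes without a read were Kcna1, Kcna2, Kcna3, Kcnd3, Kcnj3, Kcnj11 and Scn11a.

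Only 8 channel genes had 10 or more counts in every line, namely Cacna1a, Cacna1c, Cacna1g, Cacnb3, Kcnk5, Kcnn4, Kcnq5 and Scn3a. Of the 40 expressed genes, 20 (these 8 included) reached this limit in lines of both groups, 19 in Myc_p53 lines alone and 1 in Myc_Utx lines alone. The share of expressed genes found in Myc_p53 lines alone was 47.5%, beside 13.1% over all genes of the table that reached 10 counts. Those found in Myc_Utx lines alone were 1 of the 40 channel genes and 1.90% of all. Between 13 and 17 channel genes reached 10 counts in a Myc_Utx line and between 24 and 28 in a Myc_p53 line. As 2 Myc_p53 libraries were deeper than any Myc_Utx library, the count was repeated at 2 CPM in any line, which 38 channel genes reached, 17 of them (44.7%) in Myc_p53 lines alone and 1 in Myc_Utx lines alone. Over all genes that reached 2 CPM, 10.5% did so in Myc_p53 lines alone and 2.73% in Myc_Utx lines alone. Channel genes lay nearer to these limits, with a median log2 CPM of 2.78 for those tested and 5.28 for all genes tested. Myc_p53 lines were also less alike, with correlations of log2 CPM of 0.955 to 0.974 against 0.977 to 0.980 among Myc_Utx lines. The part of either in these shares was not tested.

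**Figure D1:**
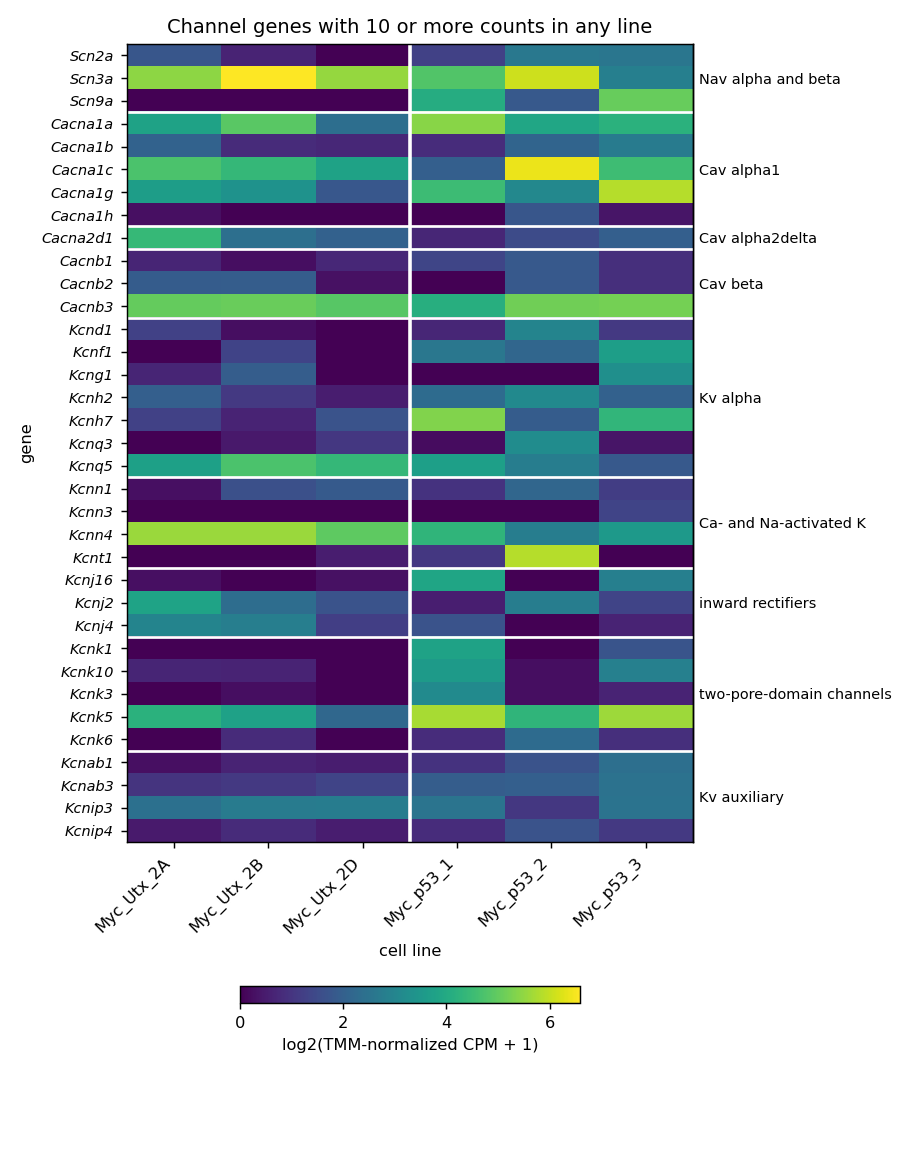
Level of 35 of the 40 channel genes with 10 or more counts in any line (rows, grouped by family) in the 6 cell lines (columns), as log2 of TMM-normalized CPM plus 1. Scn3a, Cacnb3, Kcnk5 and Kcnn4 are seen in every line, while many rows are bright in 1 or 2 Myc_p53 lines and dark elsewhere.

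Levels between genes can be compared only per length, and were set as TMM-normalized CPM per kb of merged exons. On this scale Cacnb3, a beta subunit that brings calcium channel pores to the membrane, had the highest mean level. It had 10.2, 10.4 and 9.06 CPM per kb in Myc_Utx lines 2A, 2B and 2D and 5.27, 11.1 and 11.5 in Myc_p53 lines 1, 2 and 3, and the groups overlapped, with a log2 fold change of 0.092 (standard error 0.31). Next came Kcnk5, an acid-sensitive leak channel of the K2P family, with 3.30 ± 2.08 (SD, n = 3) in Myc_Utx and 11.6 ± 5.29 (SD, n = 3) in Myc_p53 lines. Kcnn4, the calcium-activated channel of intermediate conductance found in epithelia and blood cells, had 8.10 ± 1.96 (SD, n = 3) and 2.30 ± 1.26 (SD, n = 3). Scn3a, a sodium channel pore best known from the embryonic brain, had 4.92 ± 2.34 (SD, n = 3) and 2.64 ± 2.45 (SD, n = 3). These 4 stood above the rest in mean level, and the spread of Scn3a overlapped with that of Kcnn4. The calcium channel pores Cacna1g (mean over all lines 1.80), Cacna1a (1.73) and Cacna1c (1.30) and the genes Kcnq5 (1.70) and Kcnj4 (1.31) were also among the highest 10, in an order that the spread between lines does not resolve.

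**Figure D2:**
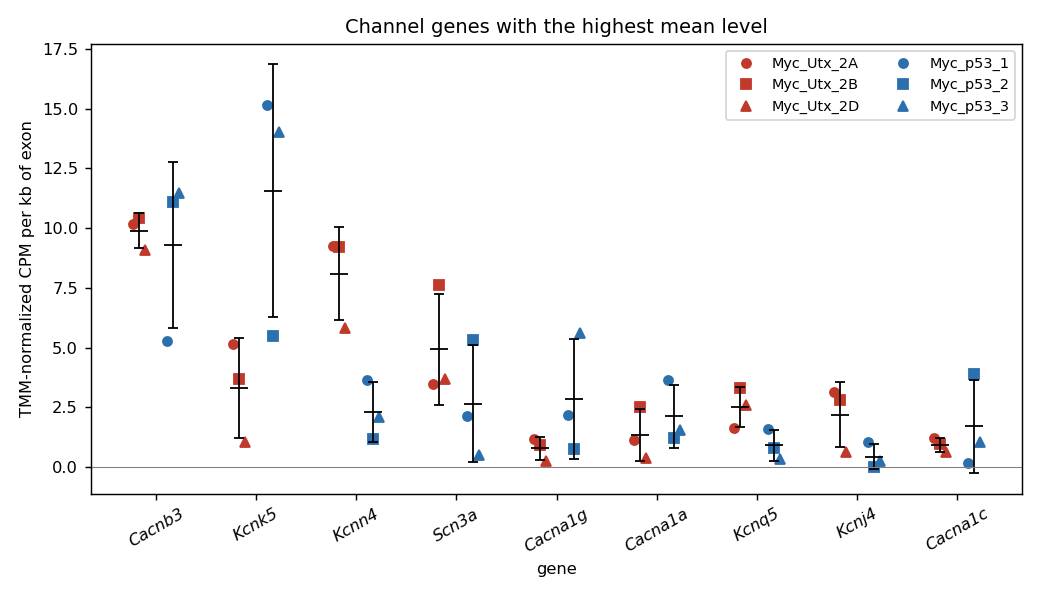
Level of 9 of the 10 channel genes with the highest mean, in TMM-normalized CPM per kb of exon, for each Myc_Utx (red) and Myc_p53 line (blue). Black bars give the mean and SD of 3 lines. Kcnk5 lies higher in each Myc_p53 line than in any Myc_Utx line, Kcnn4 lies lower in each, and the lines of Cacnb3 overlap.

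Between Myc_Utx and Myc_p53 lines, 22 channel genes were abundant enough to be tested with the quasi-likelihood test of edgeR among 11510 genes, with Benjamini-Hochberg adjustment over all of them. At an adjusted p under 0.05, Kcnn4 was higher and Scn9a and Kcnab3 were lower in Myc_Utx lines. These 3 of 22 compare with 14.7% of all genes tested, of which 6.99% were called higher and 7.69% lower. The share of channel genes called was therefore near the background. An unadjusted p under 0.05 was reached by 10 of the 22, against 35.0% of all genes. DESeq2 gave an adjusted p to 37 channel genes and called 10 of them, against 20.9% of all genes. The other 18 expressed genes reached 10 counts in too few lines to pass the filter, and the genes that passed are not the whole set.

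Kcnn4 (ENSMUSG00000054342, chromosome 7, 24370263 to 24386690, plus strand) had 47.3, 47.2 and 29.8 TMM-normalized CPM in Myc_Utx lines 2A, 2B and 2D and 18.6, 5.93 and 10.7 in Myc_p53 lines 1, 2 and 3. Each Myc_Utx line was above each Myc_p53 line. The log2 fold change, written throughout as Myc_Utx over Myc_p53, was 1.81 (standard error 0.43, edgeR adjusted p = 0.0415). DESeq2 gave 1.82 with an adjusted p of 0.000944. Leaving out any Myc_Utx line or Myc_p53 line 3 took the edgeR adjusted p above 0.05, to between 0.0911 and 0.124, with log2 fold changes of 1.73 to 2.02. Of the 12 calcium-activated or sodium-activated channel genes, edgeR tested only Kcnn4 and Kcnn1, and Kcnn1 was not called. Kcnn1, a small-conductance channel, had 1, 11 and 12 counts in Myc_Utx and 6, 19 and 9 in Myc_p53 lines. Kcnma1, the pore of the large-conductance channel, had at most 3 counts in any line. Kcnt1, a sodium-activated potassium channel, was found in a single line, with 305 counts in Myc_p53 line 2 beside 7 in line 1, 0 in line 3 and at most 2 in a Myc_Utx line.

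Scn9a (ENSMUSG00000075316, chromosome 2, 66480080 to 66634962, minus strand), the sodium channel of pain-sensing neurons, had 0 counts in each Myc_Utx line and 100, 14 and 227 in Myc_p53 lines. Its edgeR adjusted p was 0.0407. Against a floor of 3 counts in each Myc_Utx library, the mean of Myc_p53 lines was at least 27.8-fold higher, and it was carried by lines 1 and 3. The call was lost, with adjusted p between 0.0800 and 0.102, when any line other than Myc_p53 line 2 was left out. Scn2a, a sodium channel of the brain, had 12, 3 and 0 against 9, 28 and 35 counts, with overlap.

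Scn9a belongs to a cluster of 5 sodium channel genes on mouse chromosome 2, in the order Scn3a, Scn2a, Scn1a, Scn9a and Scn7a. Scn3a lies at one end (ENSMUSG00000057182, chromosome 2, 65457118 to 65567627, minus strand) and had 218, 507 and 205 counts in Myc_Utx and 168, 357 and 43 in Myc_p53 lines. The fitted log2 fold change was 0.90 (standard error 0.78, edgeR adjusted p = 0.446), and the groups overlapped. Scn1a, next to Scn9a, had at most 2 counts in any line. Scn7a, on the other side, had 0 counts in each Myc_Utx line and 8, 7 and 2 in Myc_p53 lines, too few for a fold change. Reads were thus present at Scn3a and missing at Scn9a in the same Myc_Utx lines. The exons of Scn9a overlap those of the antisense gene Gm13629, which had no count.

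**Figure D3:**
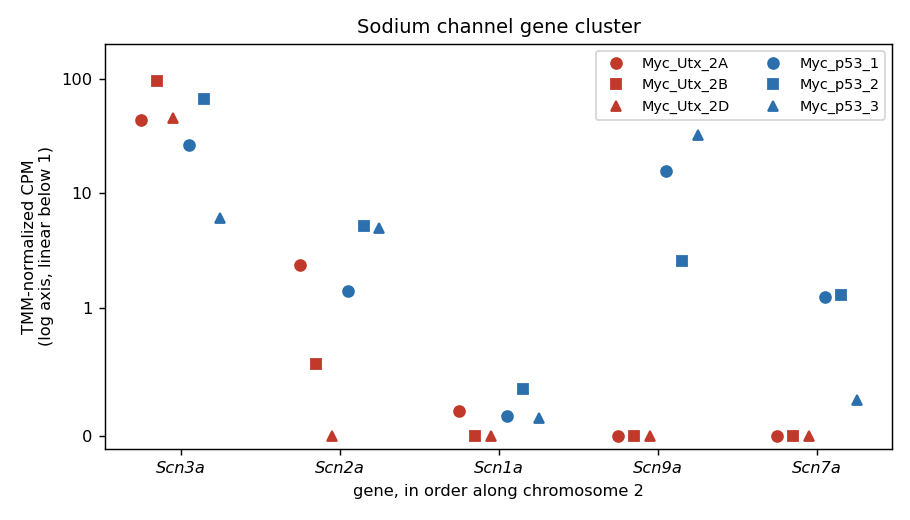
TMM-normalized CPM of the 5 sodium channel genes of the chromosome 2 cluster, in genome order, in each Myc_Utx (red) and Myc_p53 line (blue), on an axis that is logarithmic above 1 and linear below. Scn9a and Scn7a are at 0 in the 3 Myc_Utx lines, and Scn3a is present in all 6.

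Kcnab3 (ENSMUSG00000018470, chromosome 11, 69326258 to 69333042, plus strand), an auxiliary beta subunit of Kv channels, was low in all lines, with 5, 6 and 7 counts in Myc_Utx and 18, 16 and 32 in Myc_p53 lines. The groups did not overlap, and the log2 fold change was -1.49 (standard error 0.38, edgeR adjusted p = 0.0491). DESeq2 gave an adjusted p of 0.120, and with no filter on low counts edgeR gave 0.143. Each of the 6 fits without a line took it above 0.05, from 0.0660 to 0.163. Of the other auxiliary subunits, Kcnip3, a calcium-binding partner of Kv4 channels, had 22, 30 and 26 counts in Myc_Utx and 30, 6 and 33 in Myc_p53 lines, with overlap (edgeR adjusted p = 0.490). Kcnab1 had 1, 3 and 2 against 6, 12 and 30 counts, without overlap. Kcnip4 had 2, 4 and 2 against 5, 12 and 8 counts and shares exon bases with 5730480H06Rik on the opposite strand, which had between 48 and 102 counts.

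The K2P leak channels had the highest summed level of the potassium channel families in the mean over all lines, with 1.43 to 5.34 CPM per kb in Myc_Utx and 7.09 to 24.7 in Myc_p53 lines. Kcnk5 (ENSMUSG00000023243, chromosome 14, 20140057 to 20181809, minus strand) made up most of it. It had 88, 67 and 16 counts in Myc_Utx lines and 327, 101 and 335 in Myc_p53 lines without overlap, a log2 fold change of -1.81 (standard error 0.62, edgeR adjusted p = 0.0955, DESeq2 adjusted p = 0.0195). The gap was narrow, with 17.55 CPM in Myc_Utx line 2A and 18.72 CPM in Myc_p53 line 2. Kcnk1, a weakly rectifying leak channel, had 0 counts in every Myc_Utx line and 81, 0 and 16 in Myc_p53 lines. Kcnk10, a channel opened by stretch and fatty acids, had 3, 3 and 0 against 70, 1 and 44. Kcnk3, the acid-sensitive channel TASK-1, had 0, 1 and 0 against 50, 1 and 4. Kcnk6 had 0, 4 and 0 against 5, 21 and 6 and was highest in the Myc_p53 line in which the other 3 were nearly absent. Of these 4, none passed the edgeR filter, and DESeq2 called Kcnk10 (adjusted p = 0.0342) and Kcnk3 (0.0432).

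Among inward rectifiers, which hold the resting potential near that of potassium, Kcnj2 had 66, 22 and 10 counts in Myc_Utx and 3, 32 and 11 in Myc_p53 lines (edgeR adjusted p = 0.385). Kcnj4 had 34, 32 and 6 counts against 14, 0 and 4, with a log2 fold change of 2.30 (standard error 1.06, edgeR adjusted p = 0.178). Both overlapped between the groups. Kcnj16, a subunit of epithelial channels, had 1, 0 and 1 counts in Myc_Utx and 86, 0 and 43 in Myc_p53 lines and was too rare for the edgeR test (DESeq2 adjusted p = 0.0146). Kcnj8 and Kcnj11, the pores of ATP-sensitive channels, had at most 2 counts and none.

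Of the Kv pore subunits, Kcnq5, which carries a slow non-inactivating current, had 62, 136 and 90 counts in Myc_Utx and 77, 32 and 18 in Myc_p53 lines. After scaling to library size its groups did not overlap, with 12.4 CPM in the lowest Myc_Utx and 12.2 CPM in the highest Myc_p53 line, and the log2 fold change was 1.48 (standard error 0.58, edgeR adjusted p = 0.126). Kcnh7, an ERG-type channel, had 7, 3 and 10 counts in Myc_Utx and 249, 15 and 134 in Myc_p53 lines, a log2 fold change of -3.87 (standard error 1.01, edgeR adjusted p = 0.0510, DESeq2 adjusted p = 0.000449). Its nearest lines of the groups had 2.23 CPM (Myc_Utx line 2D) and 2.78 CPM (Myc_p53 line 2). Its exons overlap those of Gca, which lies on the opposite strand and had 18, 5 and 21 against 51, 19 and 129 counts. Whether reads were counted by strand is not given in the sources used here, so reads of this pair may not be fully separable. Kcnf1, a silent subunit that modifies other Kv subunits, had 0, 8 and 0 counts against 32, 19 and 84 (edgeR adjusted p = 0.0786, DESeq2 adjusted p = 0.0226). Kcnh2, the ERG channel of the heart, had 15, 6 and 2 against 25, 42 and 22 (edgeR adjusted p = 0.142). Neither Kcnf1 nor Kcnh2 overlapped between the groups. The gap was narrow for Kcnh2, with 2.99 CPM in Myc_Utx line 2A and 3.14 CPM in Myc_p53 line 3. Kcng1, another silent subunit, had 3, 15 and 0 against 0, 0 and 61 counts, all of the latter from Myc_p53 line 3.

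No calcium channel gene was called by edgeR. Cacna1g, a low-threshold T-type pore, had 59, 49 and 11 counts in Myc_Utx and 139, 40 and 399 in Myc_p53 lines (log2 fold change -1.88, standard error 0.84, edgeR adjusted p = 0.165). Cacna1c, the L-type pore of heart and smooth muscle, had 127, 106 and 58 against 19, 445 and 156, so that both the lowest and the highest value lay in Myc_p53 lines. Cacna1a, the P/Q-type pore, had 64, 154 and 19 against 263, 75 and 122. All 3 overlapped between the groups. Cacna2d1, the alpha2delta subunit to which gabapentin binds, had 102, 23 and 14 counts in Myc_Utx and 4, 10 and 21 in Myc_p53 lines. Scaled to library size its groups did not overlap, with 3.12 CPM in Myc_Utx line 2D and 2.99 CPM in Myc_p53 line 3, and the log2 fold change of 2.32 (standard error 0.89, edgeR adjusted p = 0.122) rested mostly on line 2A. Cacnb1, a beta subunit known from skeletal muscle, had 3, 1 and 3 counts in Myc_Utx and 10, 14 and 6 in Myc_p53 lines. Cacna1b, the N-type pore, had 16, 4 and 3 against 5, 18 and 40 counts, and the beta subunit Cacnb2 had 14, 15 and 1 against 0, 14 and 6, both with overlap.

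**Figure D4:**
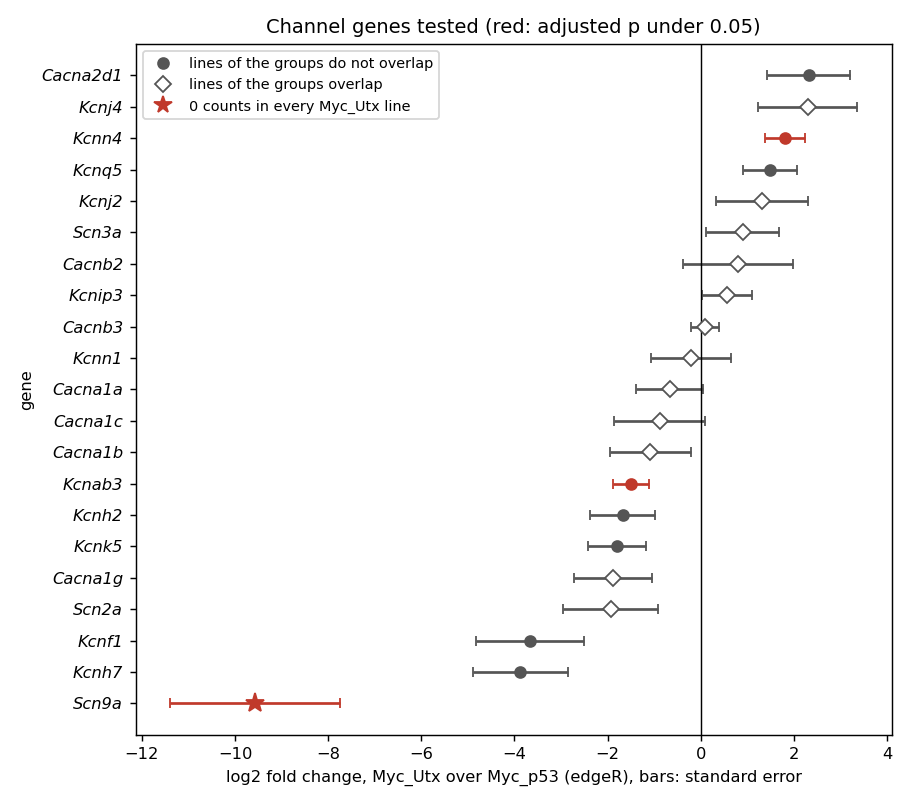
Log2 fold change of 21 of the 22 channel genes tested, Myc_Utx over Myc_p53, with the standard error of the edgeR fit. Filled symbols mark genes whose lines do not overlap between the groups, and red marks an adjusted p under 0.05. Kcnn4 lies to the right and Kcnab3 and Scn9a to the left among the genes called, and the fitted value of Scn9a (star) depends on the prior count because it had no read in Myc_Utx lines.

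In all, 10 of the 22 genes tested did not overlap between the groups, against 42.0% of all genes tested, so this count too was near the background. Of these, 7 were lower in Myc_Utx lines (among them Scn9a, Kcnf1, Kcnh2, Kcnh7, Kcnk5 and Kcnab3) and 3 were higher (Cacna2d1, Kcnn4 and Kcnq5). The split by direction over all genes without overlap was not counted. For each of the 10, the exact permutation test of 3 lines against 3 gave a two-sided p of 0.1, the smallest it allows. Groups without overlap always give this value, so it adds nothing to the count. Of the 22 genes, 13 had a log2 fold change below 0 (59.1%, beside 50.8% of all genes tested) and 9 one above 0. The median of the 22 was -0.77, beside -0.012 for all genes tested, and their median size regardless of direction was 1.58, beside 0.41. Scn9a, Kcnab3 and Kcnf1 reached 10 counts only in Myc_p53 lines, so they passed the filter through the group in which they were high. With at least 10 counts required in every line, 8 channel genes were left with a median of -0.33, beside -0.0078 for all genes of that fit. The median of -0.77 was -1.75 without Myc_Utx line 2A, -1.48 without Myc_Utx line 2B, -1.43 without Myc_p53 line 1 and -0.44 without Myc_p53 line 3, in fits that each tested another number of channel genes (23 to 29).

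The size of these differences went with a large spread between lines. The median SD of log2 CPM within a group was 1.15 for the 22 channel genes and 0.26 for all genes tested, and the median standard error of the log2 fold change was 0.87 and 0.23. Channel genes were also less abundant, with a median of 2.78 against 5.28 on the scale of log2 CPM. Of the 40 expressed genes, 10 (25.0%, beside 7.46% over all genes that reached 10 counts) had 10 or more counts in just 1 line, and in each case this was a Myc_p53 line. Line 2 accounted for 6 of them (Cacna1h, Kcnd1, Kcnip4, Kcnk6, Kcnq3 and Kcnt1), line 1 for 3 (among them Kcnk3) and line 3 for Kcnn3. Another 4 genes, among them Kcnj16, Kcnk1 and Kcnk10, reached 10 counts in Myc_p53 lines 1 and 3 and had at most 3 counts in any other line.

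The channel genes have long transcripts, with a median merged exon length of 8226.5 bases for the 22 tested and 4441 bases for all genes tested. With offsets that removed the trend of fold change with exon length in each line, the median log2 fold change of the 22 was -0.49, beside 0.028 for all genes. The same 3 genes were called with these offsets, with adjusted p of 0.0426 for Kcnn4, 0.0475 for Scn9a and 0.0494 for Kcnab3.

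**Figure D5:**
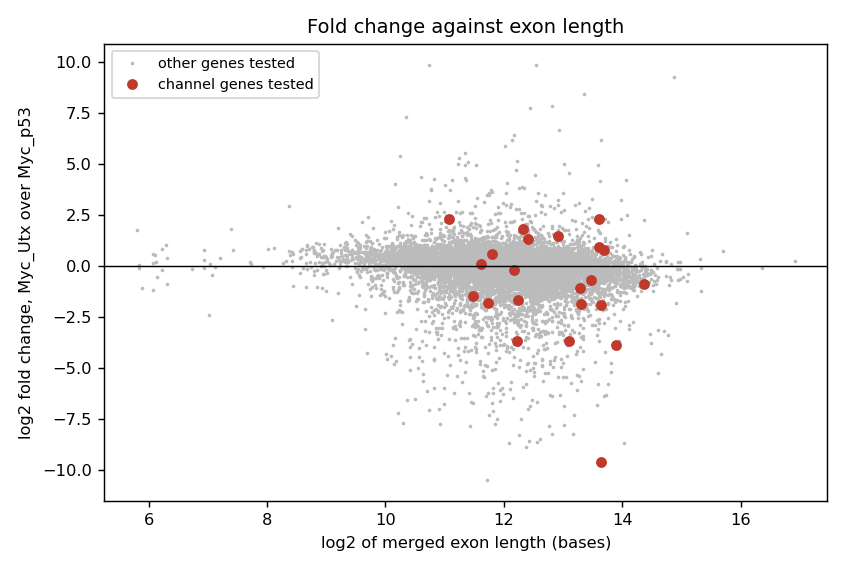
Log2 fold change, Myc_Utx over Myc_p53, of each gene tested against the log2 of its merged exon length in bases, with the 22 channel genes in red. Channel genes lie toward the long end and spread to both sides of 0.

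Other genes of ion transport were counted from lists by function, and their counts stand beside the 14.7% of all genes tested that were called, 6.99% higher and 7.69% lower. Of 23 partner proteins of these channels, 7 were tested, and 2 were called, both lower in Myc_Utx lines. These were Gem and Rrad, small GTPases that inhibit voltage-gated calcium channels. Gem had 0, 2 and 3 counts in Myc_Utx and 80, 121 and 58 in Myc_p53 lines (log2 fold change -5.32, standard error 0.81, edgeR adjusted p = 0.0180). Rrad had 4, 4 and 3 against 224, 36 and 103 (log2 fold change -4.64, standard error 0.72, edgeR adjusted p = 0.0185).

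Among 31 other cation channel genes, 8 were tested and 2 were lower, Tmem38a, which forms a channel of the endoplasmic reticulum, and Catsper2, known from sperm. Of 29 TRP and mechanosensitive channel genes, 10 were tested and Pkd1 was lower (log2 fold change -0.56, standard error 0.14, edgeR adjusted p = 0.0473). Of 21 store-operated and intracellular calcium genes, 15 were tested, and the calcium pump Atp2a3 was lower, with 0, 2 and 4 counts against 14, 28 and 47. Of 14 subunits of the sodium-potassium pump, 4 were tested, and Atp1b3, a beta subunit, was higher (148.5 ± 11.6 CPM against 101.0 ± 11.7, SD, n = 3). Of 28 chloride and volume-regulated channel genes, 15 were tested, and Clcn4, an endosomal chloride-proton exchanger, and Ano3 were higher while Ano6, a lipid scramblase, and Lrrc8d, a subunit of the volume-regulated anion channel, were lower. Ano3 had 87, 154 and 18 counts in Myc_Utx lines and 0, 0 and 1 in Myc_p53 lines. Of 10 genes of the REST repressor, which silences many neuronal channel genes outside the nervous system, all were tested, Hdac2 was higher (log2 fold change 0.82, standard error 0.12, edgeR adjusted p = 0.0177) and Ehmt1 lower (-0.48, standard error 0.12, edgeR adjusted p = 0.0460), and Rest itself was not called.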

How the data were processed

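Counts per Ensembl gene were deposited by the authors as raw counts of 6 libraries, without normalization, with a transcript length in bases that equals the merged exon length of GENCODE M21 (GRCm38) for 95.6% of genes found there and 120 of the 132 channel genes. The submitters' processing notes name Trimmomatic 0.36, STAR 2.5.3a, featureCounts 1.6.3 and DESeq2 1.20.0 and the builds GRCm38 and mm10. The paper's methods instead name HTSeq, a human build and Myc;sgMll3 lines, and groups here follow the labels. The counts were fitted with edgeR 4.0.16 under R 4.3.3 (filterByExpr with a minimum count of 10, TMM, quasi-likelihood F test, Benjamini-Hochberg adjustment over all genes tested). Standard errors were derived from the fold change and its F statistic. At 4656103 to 6937497 counts per library, a gene at 0 may have up to 3 counts, and such floors cover counting error only.

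The channel genes and lists were chosen with earlier results of these data known. Named are genes called, the 10 highest per kb, the highest of each family and those at the floor in 1 group, and other expressed genes were added to account for the set. Alternatives were DESeq2 1.42.0, its size factors, total counts only, other count filters, length offsets (splines of 5 degrees of freedom fitted by robust regression, MASS 7.3.60.0.1) and leaving out each line. P-values measure the spread between these lines, for which the number of mice is not given. Promoter windows come from RefSeq on GRCm38.p6. No column of other samples was present. Some channel genes enter the counts and medians but are not reported here by name.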

Additional observations from a re-analysis of the deposited data

How the results depend on the processing

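No paired analysis was possible because the labels of Myc_Utx lines 2A, 2B and 2D and Myc_p53 lines 1, 2 and 3 give no pairing. Against 1 channel gene called higher and 2 lower by edgeR with all lines, DESeq2 called 9 lower, among them Kcnf1, Kcnh7, Kcnj16, Kcnk10, Kcnk3, Kcnk5 and Scn9a, and 1 higher, Kcnn4. With at least 10 counts in every line, 8 channel genes were left, which removes Scn9a and Kcnab3 by construction. Of these 8, 0 were called lower and 1 higher, beside 14.2% of all genes of that fit called in either direction. An unadjusted p under 0.05 was reached by 4 of the 8, and the share of all genes was not counted. With no filter, 97 channel genes had a median log2 fold change of -1.64, most of them with few counts, and Kcnh7 and Scn9a were among those called lower. DESeq2 size factors, total counts only and length offsets each called the same 3 genes as TMM. Over all genes called, the share higher in Myc_Utx lines was 47.6%, and it was 37.3% with total counts only and 53.9% with length offsets.

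With 1 line left out, between 0 and 1 channel genes were called higher and between 0 and 5 lower, and the median log2 fold change lay between -1.75 and -0.44. At an adjusted p under 0.05, no channel gene was called by edgeR without Myc_Utx line 2A, Myc_Utx line 2D or Myc_p53 line 3. In these fits 0.0332%, 0.585% and 1.02% of all genes tested were called, and the cause was not tested. An unadjusted p under 0.05 was reached by 10 of 28, 9 of 29 and 6 of 23 channel genes. The share of all genes at that unadjusted p was not counted in these fits, and was 35.0% with all lines. A single channel gene was called without Myc_Utx line 2B, Kcnab1 was called lower without Myc_p53 line 1, and Kcnh7, Kcnj16, Kcnk10 and Scn9a were among those called lower without Myc_p53 line 2. The channel genes called in these 3 fits were 1 of 27, 2 of 25 and 6 of 28, beside 0.672%, 9.41% and 16.4% of all genes tested. The direction turned for Cacna1c (-1.43 to 0.62, above 0 without Myc_p53 line 2), Cacnb3 (-0.20 to 0.27) and Kcnn1 (-0.71 to 0.54), none of them called. The number of expressed channel genes stayed between 34 and 40 without 1 line.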
